A study of Homo sapiens with 18 samples.

Results

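This set of 9 genes holds the enzymes that write and remove DNA methylation, with 1 partner and 1 reader: the methyltransferases DNMT1, DNMT3A and DNMT3B, the catalytically inactive DNMT3L, the maintenance partner UHRF1, the dioxygenases TET1, TET2 and TET3, and the methyl-CpG reader MBD2. They were taken by gene symbol, 9 of the 28277 genes in a table of RNA-seq read counts, and were followed across 6 groups of OVCAR3 cells. OVCAR3 is a cell line from a high-grade serous ovarian carcinoma. The study asked what loss of the long noncoding RNA XIST and low oxygen do to gene expression in these cells.

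All groups carried dCas9-KRAB, a nuclease-dead Cas9 fused to a repressor domain, so the control cells carried the repressor as well. Each guide was studied in clonal cells, so a guide and its clone cannot be told apart. sgControl cells had a guide against Gal4, a yeast gene that human cells lack, whereas sgXIST7 and sgXIST9 cells had a guide against XIST. Each of these was kept in normoxia or placed for 24 h in a chamber at 1% oxygen (hypoxia), with 3 replicates in each of the 6 groups and 18 libraries in all. XIST was low in both knockdowns, at 0 to 5 reads per library in sgXIST7 cells and 357 to 1009 in sgXIST9 cells, against 1589 to 11209 in sgControl cells.

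DNA methylation in mammals is laid down on CpG dinucleotides by DNMT3A and DNMT3B and copied after each round of replication by DNMT1, which UHRF1 brings to hemimethylated DNA. TET enzymes oxidize 5-methylcytosine with oxygen and 2-oxoglutarate as cosubstrates and iron as a cofactor, which starts demethylation by dilution or by base excision repair. MBD2 binds methylated CpGs and brings the NuRD remodeling complex to them. In somatic cells DNMT1 and UHRF1 are genes of proliferating cells with peak transcription around S phase. The assay measured RNA and not methylation or enzyme activity, and in bulk RNA fewer cells expressing a gene and less RNA per cell cannot be told apart.

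On hg38 the deposited gene models placed DNMT1 at chr19:10133346-10194953 (minus strand), DNMT3A at chr2:25227877-25342590 (minus), DNMT3B at chr20:32762385-32809356 (plus), DNMT3L at chr21:44246339-44261897 (minus) and UHRF1 at chr19:4903080-4962154 (plus). TET1 lay at chr10:68560337-68694485 (plus), TET2 at chr4:105145875-105279803 (plus), TET3 at chr2:73984910-74108175 (plus) and MBD2 at chr18:54151606-54224669 (minus). Reads were counted over the exons of each gene. Of the 9 genes, DNMT3L was the only one to share exon bases with another listed gene, its antisense gene DNMT3L-AS1, over 129 bases.

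The start regions of 4 members are shown, those of the maintenance pair that fell and of the dioxygenases that rose under hypoxia. Each is the 250 bases before a RefSeq start on GRCh38.p14, 5′ to 3′ on the strand of the gene, with matches to the motifs searched in capitals. DNMT1 was read from chr19:10194954-10195203 (minus), UHRF1 from chr19:4909251-4909500 (plus), TET1 from chr10:68560087-68560336 (plus) and TET2 from chr4:105145625-105145874 (plus). The UHRF1 window lies inside the longer deposited gene model, and none of the 4 windows overlaps a deposited exon.
DNMT1: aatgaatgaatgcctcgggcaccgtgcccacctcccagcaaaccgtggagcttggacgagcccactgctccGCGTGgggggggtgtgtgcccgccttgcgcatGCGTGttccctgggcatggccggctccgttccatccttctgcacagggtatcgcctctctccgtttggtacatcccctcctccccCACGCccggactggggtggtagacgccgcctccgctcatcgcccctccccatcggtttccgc
UHRF1: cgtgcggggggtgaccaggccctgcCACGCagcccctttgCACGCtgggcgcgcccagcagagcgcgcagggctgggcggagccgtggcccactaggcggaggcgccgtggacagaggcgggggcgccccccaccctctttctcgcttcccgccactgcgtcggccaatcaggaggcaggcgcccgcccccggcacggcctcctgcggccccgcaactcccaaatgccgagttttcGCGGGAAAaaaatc
TET1: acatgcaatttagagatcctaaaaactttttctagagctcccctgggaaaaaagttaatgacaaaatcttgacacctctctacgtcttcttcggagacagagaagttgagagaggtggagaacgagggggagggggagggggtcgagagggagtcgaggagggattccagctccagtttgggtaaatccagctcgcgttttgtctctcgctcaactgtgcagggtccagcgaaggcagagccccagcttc
TET2: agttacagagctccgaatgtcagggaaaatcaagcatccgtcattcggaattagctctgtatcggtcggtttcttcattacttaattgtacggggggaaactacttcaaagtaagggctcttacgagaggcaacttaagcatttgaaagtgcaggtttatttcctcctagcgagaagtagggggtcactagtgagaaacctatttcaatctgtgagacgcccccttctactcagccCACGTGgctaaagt

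The motifs were the core of the hypoxia response element, written as ACGTG or GCGTG, and the E2F-type sites TTTCGCGC, TTTGGCGC and TTTCCCGC, each searched on both strands. The DNMT1 window held GCGTG 3 times, the UHRF1 window held GCGTG 2 times and TTTCCCGC once on the other strand, 14 bases before the start. The TET1 window shown held no match, whereas another RefSeq window of TET1, at chr10:68600018-68600267, held GCGTG. The TET2 window shown held CACGTG, which reads as ACGTG on both strands and gives 2 overlapping matches. RefSeq gave 19 windows for 8 of the 9 genes. A hypoxia response element core was in 10 of them, from 7 genes, and in 43.2% of 35116 promoters of this length. Windows of a gene can overlap, so a site can count more than once, as the CACGTG of DNMT3A does. An E2F-type site was found for UHRF1 alone, in 2 of its windows, and 2.32% of promoters held one. Such matches describe the letters of the window and not binding.

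Libraries held 11794375 to 24906936 counted reads, with a median of 17629433. Of the 9 genes, 8 passed the filter on low counts with 14938 genes in all. DNMT3L had 1 read in 1 library and 0 in the other 17, where a floor of 3 reads stands for 0.130 to 0.266 CPM (counts scaled to a library of 1000000), so it was not detectable at this depth. The 3 hypoxia libraries numbered 3 were the furthest from the other libraries of their groups. Their deviations from the group means also correlated with each other, at r of 0.416, 0.593 and 0.542 across genes, so values without these 3 libraries are given beside the results. Normoxia replicates 2 of sgControl and sgXIST7 also correlated, at 0.493, but less with that of sgXIST9 (0.071 and 0.104). Both held the highest normoxia values of TET1, TET2 and TET3 in their clones, and no fit left them out together. Of 10 ovarian epithelial markers, 5 were expressed above the filter (PAX8, EPCAM, KRT8, KRT18 and MSLN). The other 5, WT1, KRT19, KRT7, CDH1 and MUC16, did not pass it. KRT7 did not exceed 3 reads, CDH1 2 reads and MUC16 4 reads in any library. Among 11 markers of other cell types the blood markers PTPRC and CD3E did not exceed 1 read, 4 passed the filter, and the summed level of all 11 was 13.7 to 31.0 CPM in sgControl cells, 99.5 to 328 CPM in sgXIST7 cells and 51.8 to 117 CPM in sgXIST9 cells. Of these, the collagen gene COL1A2 was higher than in sgControl in normoxia by 8.37 (sgXIST7) and 7.39 (sgXIST9) on the log2 scale, and the part of this in the differences between clones below was not tested.

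**Figure D1:**
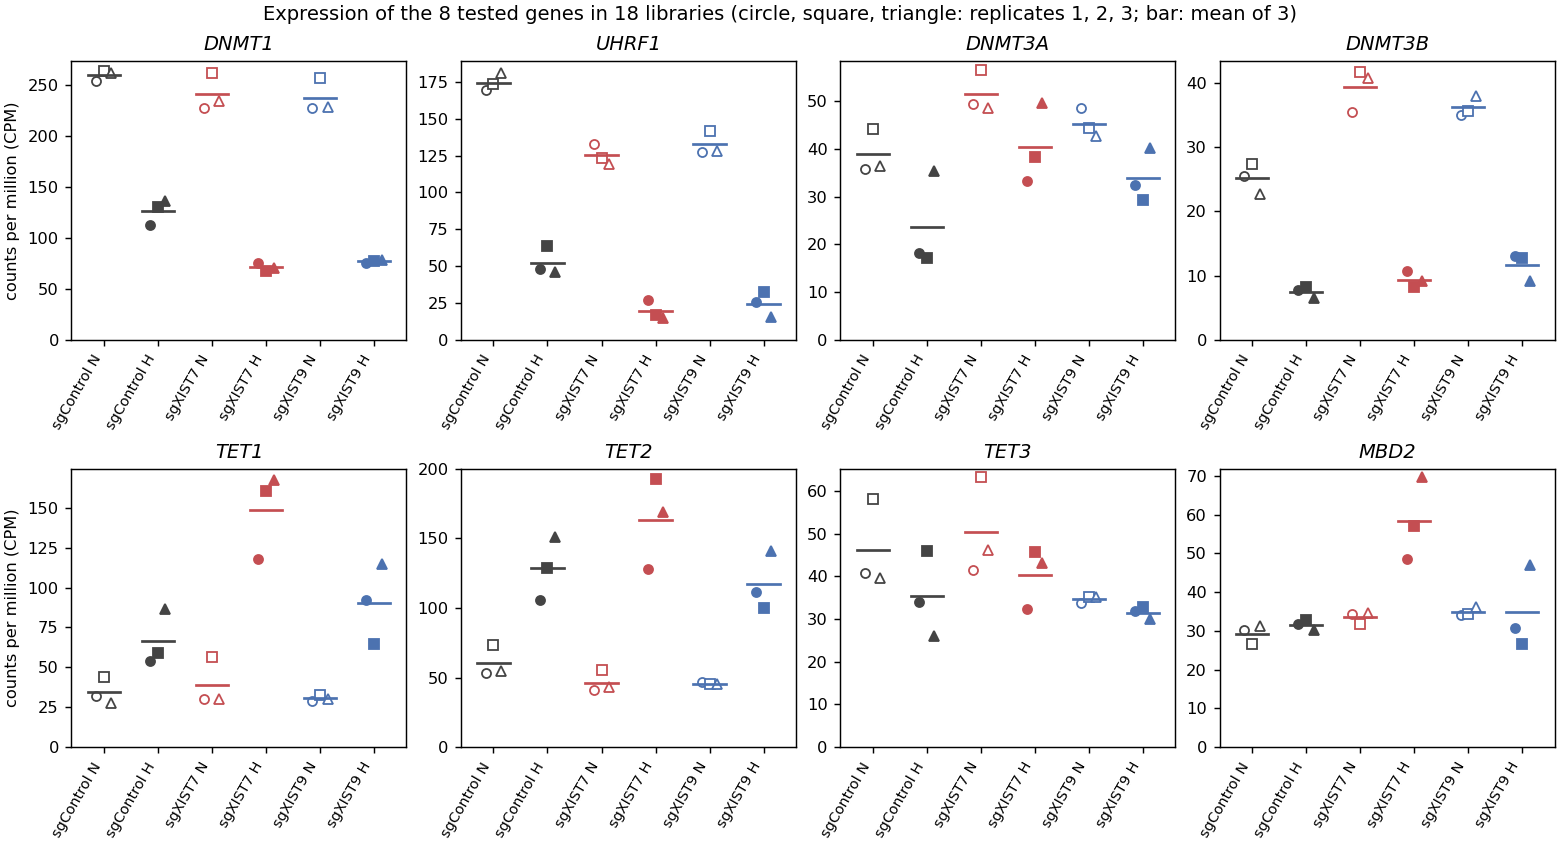
Level of the 8 expressed genes in CPM (vertical axis, linear, from 0) in each of the 18 libraries by group (N, normoxia, open symbols; H, hypoxia, filled symbols), with 1 symbol per replicate and a bar for the mean of 3. DNMT1, UHRF1 and DNMT3B sit lower in every hypoxia group than in its normoxia group, and TET1 and TET2 sit higher.

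Hypoxia lowered the maintenance genes and DNMT3B and raised TET1 and TET2 in all 3 clones. The test was a negative binomial quasi-likelihood test in edgeR with Benjamini-Hochberg adjustment over all genes tested, and a gene passed at an adjusted p under 0.05. In sgControl cells 6 of the 8 genes passed, 2 higher and 4 lower, where 51.4% of all genes passed (26.1% higher, 25.2% lower). In sgXIST7 cells 6 passed, 3 higher and 3 lower, against 59.0% of all genes (29.5% higher, 29.5% lower). In sgXIST9 cells 5 passed, 2 higher and 3 lower, against 55.3% of all genes (30.5% higher, 24.8% lower). With 8 genes and so many others past the test, these counts do not set the genes apart from the rest. At the thresholds used in the study, an adjusted p under 0.01 and a log2 fold change beyond 1 in size, 4, 5 and 5 genes passed in sgControl, sgXIST7 and sgXIST9 cells, where 19.7%, 27.3% and 23.3% of all genes did. Libraries of normoxia and hypoxia did not overlap for 6, 6 and 7 of the 8 genes, and for 55.0%, 63.9% and 65.9% of all genes. The median change of all genes was 0.02, 0.01 and 0.09 on the log2 scale.

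DNMT1, the enzyme that copies methylation to the new strand, was the most abundant of the set per kilobase of exon in normoxia. In sgControl cells it stood at 254, 264 and 263 CPM in normoxia and at 113, 131 and 136 CPM in hypoxia. In sgXIST7 cells the values were 228, 262 and 235 CPM in normoxia and 75.4, 67.8 and 70.2 CPM in hypoxia. In sgXIST9 cells they were 227, 257 and 229 CPM in normoxia and 75.5, 77.4 and 78.4 CPM in hypoxia. Every hypoxia library was lower than every normoxia library, and the knockdown libraries in hypoxia were all lower than the sgControl libraries in hypoxia. DNMT1 fell 2.06-fold in sgControl cells (log2 fold change -1.04, SE 0.09, adjusted p = 1.81e-07), 3.39-fold in sgXIST7 cells (-1.76, SE 0.10, adjusted p = 3.80e-10) and 3.08-fold in sgXIST9 cells (-1.62, SE 0.10, adjusted p = 1.31e-09). Without the 3 hypoxia libraries numbered 3 the changes were -1.09, -1.74 and -1.63.

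UHRF1, which reads hemimethylated CpGs and recruits DNMT1, had the steepest fall of the set in both knockdown clones. Its level in sgControl cells was 169, 173 and 181 CPM in normoxia against 47.9, 63.6 and 45.6 CPM in hypoxia. In sgXIST7 cells it was 133, 123 and 119.6 CPM against 27.1, 16.4 and 14.4 CPM. In sgXIST9 cells it was 127, 142 and 128 CPM against 25.7, 32.2 and 15.2 CPM. The groups were apart in each clone, and the lowest hypoxia value of each clone was in its library numbered 3. UHRF1 fell 3.33-fold in sgControl cells (log2 fold change -1.74, SE 0.23, adjusted p = 9.97e-06), 6.43-fold in sgXIST7 cells (-2.69, SE 0.24, adjusted p = 7.28e-08) and 5.42-fold in sgXIST9 cells (-2.44, SE 0.24, adjusted p = 2.43e-07). Only 2.83%, 0.810% and 0.931% of all genes tested had a lower value in the respective clone. Without the 3 hypoxia libraries numbered 3 the changes were -1.64, -2.51 and -2.19.

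DNMT3B, a de novo methyltransferase, fell alongside the maintenance genes. In sgControl cells it stood at 25.5, 27.4 and 22.7 CPM in normoxia and at 7.68, 8.13 and 6.55 CPM in hypoxia. The sgXIST7 libraries stood at 35.6, 41.7 and 40.9 CPM and then at 10.7, 8.20 and 9.15 CPM. The sgXIST9 libraries stood at 35.0, 35.7 and 38.1 CPM and then at 13.1, 12.8 and 9.08 CPM. The 9 hypoxia libraries were all below the 9 normoxia libraries. The fall was 3.36-fold in sgControl (log2 fold change -1.75, SE 0.15, adjusted p = 1.37e-07), 4.20-fold in sgXIST7 (-2.07, SE 0.15, adjusted p = 7.94e-09) and 3.10-fold in sgXIST9 cells (-1.63, SE 0.15, adjusted p = 1.24e-07), or -1.66, -2.04 and -1.48 without the 3 hypoxia libraries numbered 3.

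DNMT3A, the other de novo methyltransferase, moved less and its call depended on single libraries. It stood at 35.9, 44.2 and 36.5 CPM in normoxia and 18.1, 17.1 and 35.4 CPM in hypoxia in sgControl cells. In sgXIST7 cells it stood at 49.4, 56.5 and 48.6 CPM and then at 33.3, 38.4 and 49.6 CPM. The sgXIST9 libraries stood at 48.7, 44.3 and 42.7 CPM and then at 32.4, 29.3 and 40.2 CPM. In each clone the hypoxia library numbered 3 was the highest of its group, close to the normoxia libraries or among them. DNMT3A passed in sgControl cells (log2 fold change -0.74, SE 0.22, adjusted p = 0.0111) and missed the threshold in sgXIST7 (-0.35, SE 0.22, adjusted p = 0.174) and sgXIST9 cells (-0.41, SE 0.22, adjusted p = 0.116). The sgControl call was lost without hypoxia replicate 1 (-0.57) or replicate 2 (-0.55) and in a fit of only the groups compared (-0.71), whereas without the 3 hypoxia libraries numbered 3 DNMT3A passed in all 3 clones, at -1.14, -0.51 and -0.55. It also passed in sgXIST7 and sgXIST9 cells, at unchanged values, when only sgControl hypoxia replicate 3 was left out.

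TET1 and TET2 rose in hypoxia, where DNMT1, UHRF1 and DNMT3B fell. TET1, which carries a CXXC domain that binds unmethylated CpGs, stood in sgControl cells at 32.1, 44.1 and 27.9 CPM in normoxia and at 54.2, 58.7 and 86.8 CPM in hypoxia. In sgXIST7 cells it stood at 30.0, 56.2 and 30.1 CPM and then at 118, 161 and 168 CPM. In sgXIST9 cells it stood at 28.8, 32.9 and 30.3 CPM and then at 92.0, 64.9 and 115 CPM. No hypoxia library overlapped the normoxia libraries of its clone, and sgXIST7 hypoxia libraries were the highest of all 18. TET1 rose 1.92-fold in sgControl (log2 fold change 0.94, SE 0.26, adjusted p = 0.00694), 3.84-fold in sgXIST7 (1.94, SE 0.27, adjusted p = 8.97e-06) and 2.95-fold in sgXIST9 cells (1.56, SE 0.27, adjusted p = 9.86e-05). The highest value of each group in hypoxia was in the library numbered 3, and without these libraries the changes were 0.71, 1.86 and 1.36, all past the test.

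TET2, which has no CXXC domain of its own, stood in sgControl cells at 53.6, 73.6 and 54.9 CPM in normoxia and at 106, 129 and 151 CPM in hypoxia. The sgXIST7 libraries were at 40.8, 55.1 and 43.2 CPM and then at 128, 193 and 169 CPM. The sgXIST9 libraries were at 46.8, 45.2 and 45.1 CPM and then at 112, 100.1 and 141 CPM. All hypoxia libraries were above all normoxia libraries. TET2 rose 2.12-fold in sgControl (log2 fold change 1.08, SE 0.18, adjusted p = 1.00e-04), 3.52-fold in sgXIST7 (1.82, SE 0.18, adjusted p = 2.94e-07) and 2.57-fold in sgXIST9 cells (1.36, SE 0.18, adjusted p = 8.17e-06), and the changes were 0.96, 1.80 and 1.22 without the 3 hypoxia libraries numbered 3.

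TET3, the third dioxygenase, did not pass in any clone (log2 fold changes -0.38, -0.32 and -0.14 in sgControl, sgXIST7 and sgXIST9, adjusted p = 0.130, 0.184 and 0.588). Its 18 libraries ranged from 26.0 to 63.4 CPM, and replicate 2 was the highest library of each group, by a small margin in sgXIST9 normoxia. Without sgControl hypoxia replicate 2 the change in sgControl cells passed, at -0.61. MBD2 passed in sgXIST7 cells, rising from 34.2, 31.9 and 34.7 CPM to 48.5, 57.0 and 69.7 CPM, a 1.73-fold change (log2 fold change 0.79, SE 0.17, adjusted p = 6.01e-04). In sgControl cells MBD2 stood at 30.1, 26.7 and 31.2 CPM in normoxia and at 31.7, 32.9 and 30.1 CPM in hypoxia (0.11, SE 0.17, adjusted p = 0.619). In sgXIST9 cells it stood at 34.0, 34.3 and 36.2 CPM and then at 30.7, 26.6 and 46.9 CPM (-0.01, SE 0.17, adjusted p = 0.983, 95% interval -0.36 to 0.35). The library numbered 3 was the only sgXIST9 hypoxia library above the normoxia libraries, and without the 3 such libraries MBD2 passed in sgXIST9 cells as lower, at -0.27.

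**Figure D2:**
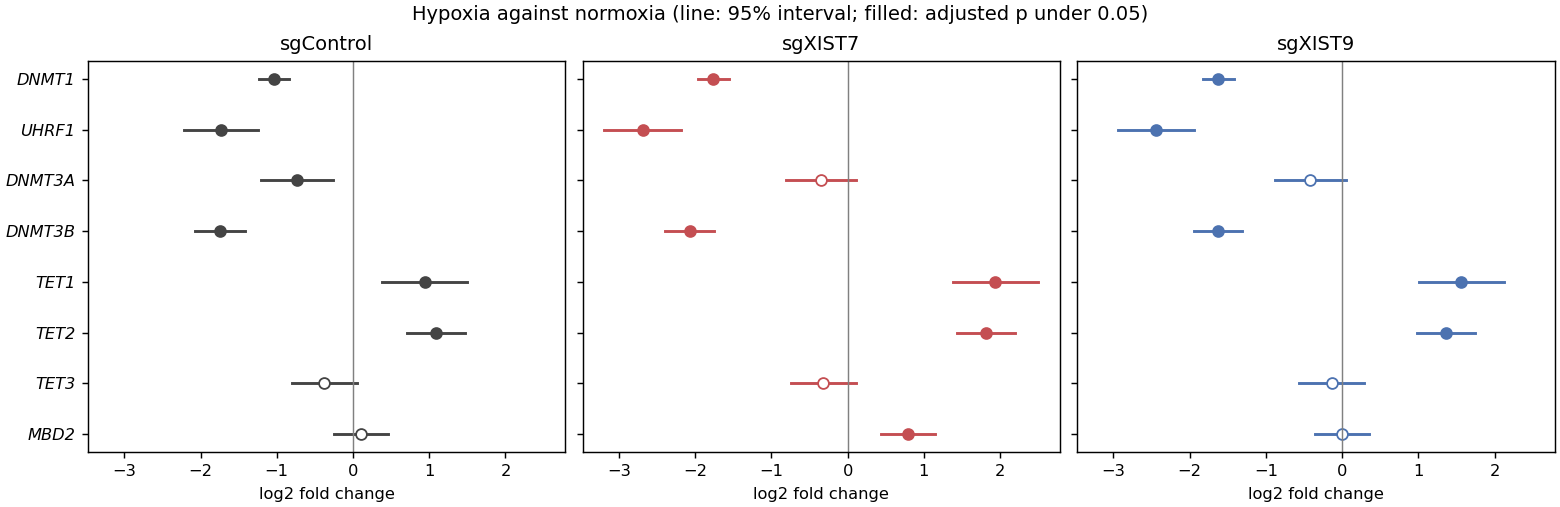
Log2 fold change of each gene in hypoxia against normoxia (horizontal axis) in sgControl, sgXIST7 and sgXIST9 cells, with lines for the 95% interval and filled symbols for an adjusted p under 0.05. UHRF1, DNMT3B and DNMT1 lie below 0 and TET1 and TET2 above 0 in all 3 clones, while MBD2 lies above 0 in sgXIST7 cells with an interval clear of 0.

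In normoxia DNMT3B was the 1 gene of the set that passed the test against sgControl, and it was higher in both knockdown clones. Of the 8 genes, 1 passed in each clone, where 21.6% of all genes passed in sgXIST7 (11.1% higher, 10.5% lower) and 21.6% in sgXIST9 cells (10.5% higher, 11% lower). Both comparisons share the sgControl libraries. DNMT3B was at 22.7 to 27.4 CPM in sgControl, 35.6 to 41.7 CPM in sgXIST7 and 35.0 to 38.1 CPM in sgXIST9 cells, with no overlap of either knockdown with sgControl. It was 1.56-fold higher in sgXIST7 (log2 fold change 0.64, SE 0.14, adjusted p = 0.00325) and 1.44-fold higher in sgXIST9 cells (0.53, SE 0.14, adjusted p = 0.0136). The sgXIST9 call was lost without sgControl normoxia replicate 3 (0.46) or sgXIST9 normoxia replicate 3 (0.49). No gene of the set passed the thresholds of the study, which 7.76% and 7.70% of all genes did.

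UHRF1 was lower in all 6 knockdown libraries in normoxia (119.6 to 142 CPM) than in the sgControl libraries (169 to 181 CPM), yet missed the threshold at -0.48 in sgXIST7 (adjusted p = 0.142) and -0.40 in sgXIST9 cells (adjusted p = 0.235). It passed in fits of only the groups compared (-0.46 and -0.39) and without the 3 hypoxia libraries numbered 3 (-0.49 and -0.40). DNMT1 differed little, by -0.11 (adjusted p = 0.464) and -0.13 (adjusted p = 0.366). DNMT3A was at 0.41 (adjusted p = 0.212) in sgXIST7 and TET2 at -0.39 (adjusted p = 0.143) in sgXIST7 and -0.41 (adjusted p = 0.123) in sgXIST9 cells. Groups did not overlap for 4 genes (UHRF1, DNMT3A, DNMT3B and MBD2) in sgXIST7 and for 5 (UHRF1, DNMT3B, MBD2, TET2 and TET3) in sgXIST9 cells, against 45.5% and 53.9% of all genes. Between the knockdown clones in normoxia 0 of 8 genes passed in edgeR, where 8.88% of all genes did. DESeq2 gave 0 as well, and 1 gene, TET3, had an unadjusted p under 0.05. TET3 was 0.54 higher in sgXIST7 than in sgXIST9 cells on the log2 scale (adjusted p = 0.119), the 1 gene without overlap, where 40.7% of all genes had none.

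In hypoxia UHRF1 and DNMT1 were lower in both knockdown clones than in sgControl cells. In sgXIST7 cells 5 of 8 passed, 3 higher and 2 lower, where 42.3% of all genes passed (20.7% higher, 21.6% lower). In sgXIST9 cells 3 of 8 passed, 1 higher and 2 lower, where 29.6% passed (15.5% higher, 14.1% lower). The share of all genes past the test was also higher than in normoxia, so the counts show nothing particular to the set. These comparisons again share their sgControl libraries. Libraries did not overlap for 5 genes in sgXIST7 (DNMT1, UHRF1, DNMT3B, TET1 and MBD2) and for 3 in sgXIST9 cells (DNMT1, UHRF1 and DNMT3B), against 40.5% and 33.7% of all genes. The thresholds of the study were passed by UHRF1 in both clones and by TET1 in sgXIST7 cells, where 14.0% (sgXIST7) and 9.53% (sgXIST9) of all genes passed them.

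Among the maintenance genes, UHRF1 was 2.70-fold lower in sgXIST7 (log2 fold change -1.43, SE 0.23, adjusted p = 1.38e-04) and 2.14-fold lower in sgXIST9 cells (-1.10, SE 0.23, adjusted p = 0.00152). DNMT1 was 1.78-fold lower in sgXIST7 (-0.83, SE 0.09, adjusted p = 3.67e-06) and 1.64-fold lower in sgXIST9 cells (-0.71, SE 0.09, adjusted p = 2.14e-05). Without the 3 hypoxia libraries numbered 3, UHRF1 was at -1.36 and -0.95 and DNMT1 at -0.76 and -0.68, all past the test. The de novo enzymes had values above 0 in both clones, but each passed in only 1 of them in the fit of all 18 libraries. DNMT3B was higher in sgXIST9 cells, 1.56-fold (0.64, SE 0.15, adjusted p = 0.00452), a call that a fit of only the groups compared did not make (0.65), and was at 0.32 in sgXIST7 cells (adjusted p = 0.106). DNMT3A was 1.73-fold higher in sgXIST7 cells (0.79, SE 0.22, adjusted p = 0.00923) and at 0.54 in sgXIST9 cells (adjusted p = 0.0773). The sgXIST7 call for DNMT3A was lost without sgControl hypoxia replicate 1 (0.63) or 2 (0.60), without sgXIST7 hypoxia replicate 3 (0.62) and in a fit of only the groups compared (0.79), whereas without the 3 libraries numbered 3 it was 1.03 in sgXIST7 and 0.81 in sgXIST9 cells, both past the test.

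TET1 was 2.24-fold higher in sgXIST7 than in sgControl cells in hypoxia (log2 fold change 1.16, SE 0.26, adjusted p = 0.00201), with all 3 sgXIST7 libraries at or above 118 CPM and no sgControl library above 86.8 CPM. In sgXIST9 cells the difference was 0.45 (adjusted p = 0.210). TET2 was at 0.34 (adjusted p = 0.127) and -0.13, and TET3 at 0.19 (adjusted p = 0.480) and -0.17, none past the test. MBD2 was 1.84-fold higher in sgXIST7 cells (0.88, SE 0.17, adjusted p = 5.51e-04) and at 0.13 in sgXIST9 cells. Set against each other in hypoxia, the knockdown clones differed in MBD2 alone among the 8 genes, 1.68-fold higher in sgXIST7 (0.75, SE 0.17, adjusted p = 0.00514), where 18% of all genes passed. MBD2 did not pass there in a fit of only these groups (0.76) and was at 0.88 without the 3 hypoxia libraries numbered 3. TET1 (0.72, adjusted p = 0.0629) and TET2 (0.47, adjusted p = 0.0731) missed the threshold, and both passed in DESeq2 (0.75 and 0.51) and without sgXIST7 hypoxia replicate 1 (0.86 and 0.62), sgXIST9 hypoxia replicate 3 (0.92 and 0.62) or sgControl hypoxia replicate 3 (0.72 and 0.48). DNMT1, TET1 and MBD2 did not overlap between these clones, against 29.7% of all genes.

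**Figure D3:**
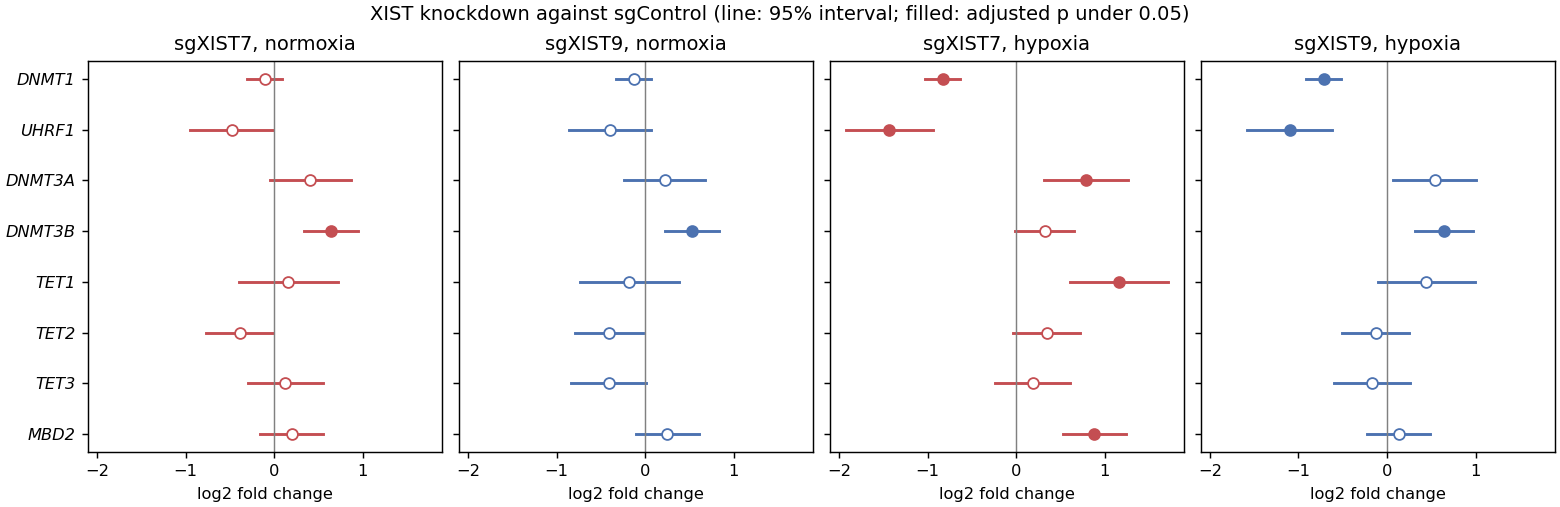
Log2 fold change of each gene in sgXIST7 and sgXIST9 cells against sgControl cells (horizontal axis), in normoxia and in hypoxia, with lines for the 95% interval and filled symbols for an adjusted p under 0.05. In hypoxia UHRF1 and DNMT1 lie below 0 in both clones with intervals clear of 0, and TET1 and MBD2 lie furthest above 0 in sgXIST7 cells.

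A change in hypoxia that passes in one clone need not differ from that in another, so the difference between the hypoxia responses was tested itself, as an interaction in the same fit. DNMT1 was the 1 gene of the 8 that passed, in both knockdown clones, where 9.39% of all genes passed for sgXIST7 and 5.27% for sgXIST9 cells. Its fall was deeper by 0.72 on the log2 scale in sgXIST7 than in sgControl cells (difference -0.72, SE 0.13, adjusted p = 0.00465, 95% interval -1.0 to -0.44). In sgXIST9 cells it was deeper by 0.58 (difference -0.58, SE 0.13, adjusted p = 0.0170, 95% interval -0.86 to -0.31). The sgXIST9 call was lost without sgControl normoxia replicate 1 (-0.57) or sgXIST9 normoxia replicate 2 (-0.52), and both differences passed without the 3 hypoxia libraries numbered 3 (-0.65 and -0.54). Both differences use the same sgControl libraries.

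For the other 7 genes the difference did not pass. UHRF1 was at -0.95 in sgXIST7 (SE 0.32, adjusted p = 0.0692) and -0.70 in sgXIST9 cells (adjusted p = 0.209), and TET1 at 1.00 (SE 0.37, adjusted p = 0.0931) and 0.62 (adjusted p = 0.354). TET2 was at 0.73 (adjusted p = 0.0749) and MBD2 at 0.69 (adjusted p = 0.0761) in sgXIST7 cells. In simulated data 100 genes differed 2-fold and 100 differed 4-fold among 14646. This test recovered 37% and 81% of them, and DESeq2 57% and 87%. A smaller share of genes differed there than the 9.39% that passed here for sgXIST7. These shares therefore do not give how often a difference in the 7 genes would be missed. Without the 3 hypoxia libraries numbered 3, DNMT3A (0.63), UHRF1 (-0.87), TET1 (1.15), TET2 (0.85) and MBD2 (0.52) also passed for sgXIST7 and DNMT3A (0.59) for sgXIST9 cells, which made 6 and 2 genes. Leaving out sgControl hypoxia replicate 3 alone gave 5 genes for sgXIST7, with DNMT3A (0.79), UHRF1 (-1.03), TET1 (1.24) and TET2 (0.87) beside DNMT1, and leaving out sgXIST7 hypoxia replicate 1 gave 4, with UHRF1 (-1.28), TET2 (0.88) and MBD2 (0.80). The 2 knockdown clones were compared in the same way after their values had been seen. Of the 8 genes 0 passed in edgeR (1.34% of all genes passed), 2 had an unadjusted p under 0.05 (MBD2 and DNMT3B), and 1, MBD2, passed in DESeq2. The response of MBD2 was 0.80 higher in sgXIST7 than in sgXIST9 cells (SE 0.24, adjusted p = 0.103, 95% interval 0.30 to 1.30), and 0.94 and past the test without the 3 hypoxia libraries numbered 3.

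To compare levels between genes, CPM were divided by the exon length of each gene in kilobases. That length covers all deposited exons of a gene (15321 bases for TET2, 5283 for DNMT1). Levels per kb thus depend on which transcripts the cells use, which was not measured. In sgControl cells in normoxia DNMT1 stood first at 49.3 ± 1.02 CPM per kb (SD, n = 3), followed by UHRF1 at 34.4 ± 1.15, and the libraries of the first 2 did not overlap each other or those of the next gene. DNMT3B (5.45) and MBD2 (5.34) overlapped, and TET2 (3.96), TET3 (3.80), TET1 (3.61) and DNMT3A (3.48) followed within each other's range. In hypoxia the order in sgControl cells was DNMT1 (24.0), UHRF1 (10.3), TET2 (8.39), TET1 (6.93), MBD2 (5.76), TET3 (2.91), DNMT3A (2.11) and DNMT3B (1.61 CPM per kb). In sgXIST7 cells in hypoxia TET1 had the highest mean at 15.5 ± 2.82 CPM per kb, above DNMT1 at 13.5 ± 0.733, with overlapping libraries. UHRF1, second in normoxia, stood there at 3.81 CPM per kb, below TET2 and MBD2 (10.6 each). In sgXIST9 cells in hypoxia DNMT1 (14.6) remained above TET1 (9.42), TET2 (7.67) and MBD2 (6.34 CPM per kb).

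Summed per kb, the 3 active methyltransferases exceeded the 3 TET genes in normoxia and not in every clone in hypoxia. The methyltransferase sum was 58.2 ± 1.55, 58.8 ± 4.32 and 56.9 ± 3.0 CPM per kb (SD, n = 3) in sgControl, sgXIST7 and sgXIST9 cells in normoxia, and 27.7 ± 2.85, 19.1 ± 0.920 and 20.2 ± 0.215 in hypoxia. The TET sum was 11.4 ± 2.44, 11.2 ± 3.0 and 9.02 ± 0.226 CPM per kb in normoxia and 18.2 ± 2.85, 29.4 ± 5.39 and 19.7 ± 3.81 in hypoxia. The ratio of the sums was thus 5.24 ± 0.904, 5.41 ± 0.931 and 6.30 ± 0.185 in normoxia. In hypoxia it was 1.53 ± 0.0829 in sgControl cells (1.44 to 1.61), 0.668 ± 0.155 in sgXIST7 cells (0.546 to 0.842) and 1.05 ± 0.196 in sgXIST9 cells (0.864 to 1.25), with no overlap between the 3 clones. Within the de novo pair DNMT3B stood above DNMT3A in normoxia, by a ratio of 1.57, 1.85 and 1.95 on average. In hypoxia the ratio was 1.02, 1.15 and 0.447 in the sgControl libraries, 0.778, 0.516 and 0.445 in sgXIST7 and 0.978, 1.05 and 0.546 in sgXIST9. DNMT3B was thus below DNMT3A in every hypoxia library of sgXIST7 alone, and the library numbered 3 was the lowest of each clone. UHRF1 per DNMT1 fell from 0.698, 0.542 and 0.581 to 0.432, 0.280 and 0.330. DNMT1 made up most of the methyltransferase sum, at 49.3 of 58.2 CPM per kb in sgControl cells in normoxia. These sums and ratios were chosen after the values had been seen and are given without a test.

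**Figure D4:**
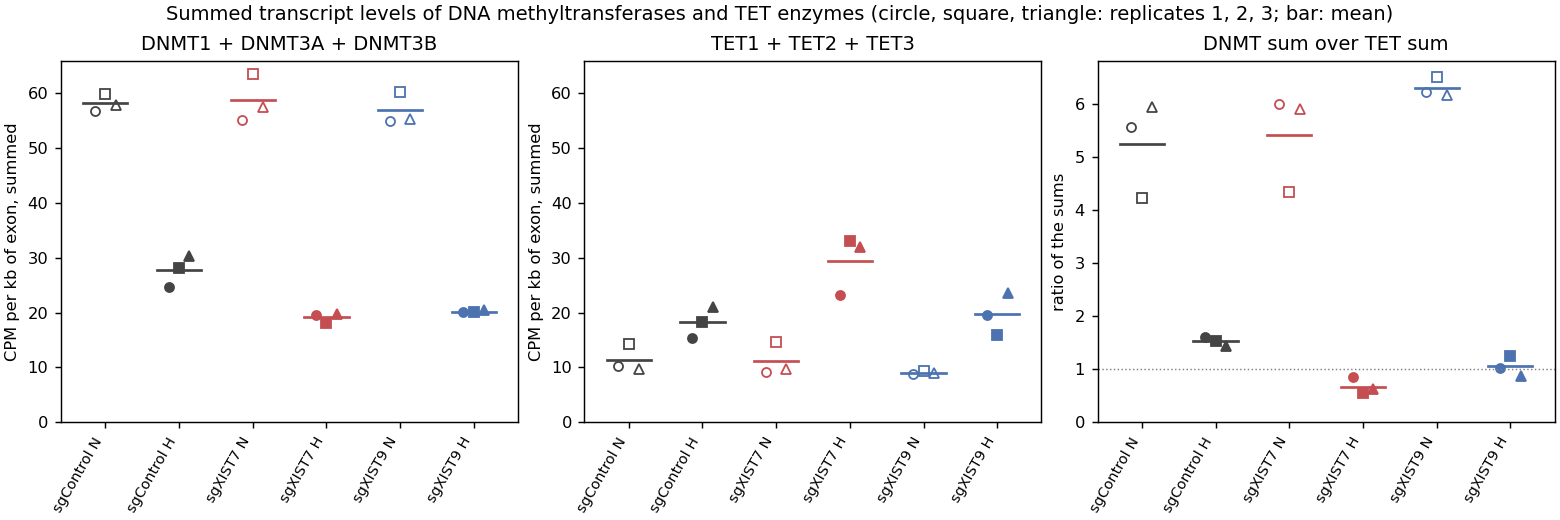
Summed level in CPM per kb of exon of DNMT1, DNMT3A and DNMT3B (left), of TET1, TET2 and TET3 (middle), and the ratio of these sums (right, dotted line at 1) in each of the 18 libraries by group, with 1 symbol per replicate and a bar for the mean. The ratio lies at 4.22 or above in normoxia, and in hypoxia all 3 sgXIST7 libraries lie below 1, the sgXIST9 libraries around 1 and the sgControl libraries at 1.44 to 1.61.

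S-phase genes, a group that DNMT1 and UHRF1 are known to follow in cycling cells, fell in hypoxia too. All 24 genes of an S-phase list had a log2 fold change below 0 in each clone. Their medians were -1.26 in sgControl, -1.94 in sgXIST7 and -1.84 in sgXIST9 cells, where those of all genes were 0.02, 0.01 and 0.09. Of all genes, 25.2%, 29.5% and 24.8% passed the test as lower. The summed level of the list was 3812 to 3892 CPM in sgControl, 3273 to 3587 in sgXIST7 and 3706 to 3853 in sgXIST9 cells in normoxia, and 1433 to 1612, 819.7 to 1036 and 858 to 1183 CPM in hypoxia. Against this list DNMT1 was a moderate faller, with 17, 18 and 19 of the 24 genes at a lower value in the 3 clones. UHRF1 was a steep one, with 3, 2 and 3 genes lower, and DNMT3B had 3, 10 and 19 genes lower. DNMT1 made up 6.75% of the summed level in normoxia and 8.21% in hypoxia in sgControl cells, 7.13% and 8.01% in sgXIST7 and 6.27% and 7.54% in sgXIST9 cells, so that its share was on average no lower in hypoxia. UHRF1 went from 4.53%, 3.68% and 3.50% to 3.40%, 2.12% and 2.29%. Between the clones in hypoxia 21 (sgXIST7) and 19 (sgXIST9) of the 24 genes passed the test as lower than in sgControl cells. Of all genes tested, 21.6% and 14.1% did. The medians of the 24 genes were -0.91 and -0.60, beside -0.83 and -0.71 for DNMT1. The difference between hypoxia responses passed for 10 and 7 of the 24, all lower, with medians of -0.73 and -0.56. Over all genes tested it passed for 9.39% and 5.27%. Read counts do not give the share of cells in S phase. The study measured cell-cycle phases by flow cytometry in these cells. It reports more knockdown than control cells in G1 under hypoxia, and no change of the cell cycle in normoxia. The part of the cell cycle in the changes of DNMT1, UHRF1 and DNMT3B was not tested.

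**Figure D5:**
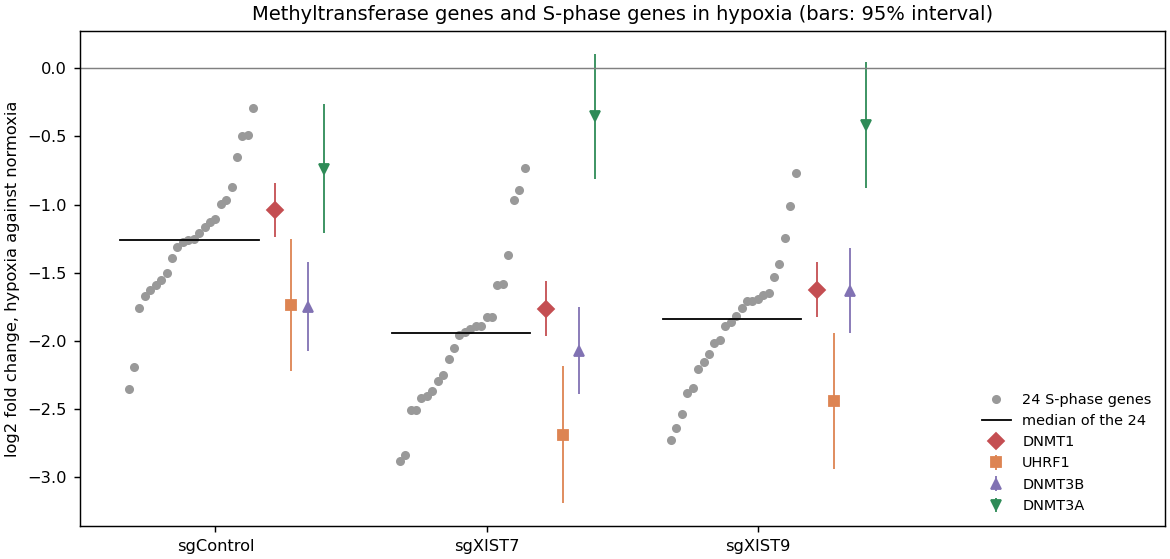
Log2 fold change in hypoxia against normoxia (vertical axis) of 24 S-phase genes (grey points, with a line at their median) and of DNMT1, UHRF1, DNMT3B and DNMT3A (colored symbols with 95% intervals) in the 3 clones. UHRF1 lies toward the lower end of the S-phase genes in each clone, DNMT1 above their median, and DNMT3A in their upper range in sgControl cells and above all of them in both knockdowns.

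Genes that work with the set were taken from lists. Of 9 genes listed as maintenance partners 7 were expressed above the filter, and in hypoxia 6 fell and 1 rose in each clone (medians -1.59, -2.32 and -1.97 in sgControl, sgXIST7 and sgXIST9 cells). These 7 include TRDMT1, a tRNA methyltransferase, so the counts are not of maintenance partners alone. Of all genes tested, 25.2%, 29.5% and 24.8% fell and 26.1%, 29.5% and 30.5% rose in the respective clone. HELLS, the remodeler that DNA methylation needs in compact chromatin, changed by -2.20, -2.86 and -2.39, and its activator CDCA7 by -2.02, -2.62 and -2.28. LIG1, the replicative ligase, changed by -1.69, -2.32 and -1.97, and PCNA, the replication clamp that also stands in the S-phase list, by -1.59, -2.36 and -2.15. The gene that rose was UHRF2, the paralog of UHRF1, at 0.88, 1.41 and 1.01, in the opposite direction to UHRF1. In normoxia CDCA7 was lower in both knockdowns than in sgControl cells (-0.87 and -0.67), and TRDMT1, the tRNA methyltransferase once named DNMT2, was higher (1.06 and 0.91).

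Of 7 other genes listed as methyl-CpG readers, 4, 3 and 2 rose in hypoxia and none fell (medians 0.25, 0.26 and 0.27), where 26.1%, 29.5% and 30.5% of all genes rose and 25.2%, 29.5% and 24.8% fell in sgControl, sgXIST7 and sgXIST9 cells, beside the rise of MBD2 in sgXIST7 cells. MBD3 stands both in this list and among the NuRD subunits below. ZBTB38, a zinc-finger reader, was lower than in sgControl cells in normoxia in sgXIST7 (-1.29) and sgXIST9 (-0.95). Of 13 NuRD subunits, the complex that MBD2 recruits, 3 rose and 9 fell in sgControl cells, and 3 rose and 7 fell in each knockdown, to be read against the same shares of all genes. The histone chaperone RBBP4 changed by -1.02, -0.78 and -0.72 and the remodeler CHD4 by -0.78, -1.03 and -1.09, while its paralog CHD3 changed by 0.56, 0.95 and 1.13, so that the ATPases moved in opposite directions. Of 13 partners of the TET enzymes in demethylation and repair, 11 were tested, and 2, 2 and 3 rose and 2, 4 and 5 fell, among them the uracil glycosylase UNG (-0.79, -1.51 and -1.05). These counts too are to be read against the same shares.

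In the supply of the methyl donor S-adenosylmethionine 11 of 13 genes were tested. In hypoxia 0, 0 and 1 rose and 4, 6 and 4 fell, among them the folate enzymes MTHFD1 (-1.86, -1.69 and -1.37) and SHMT1 (-1.39, -1.20 and -0.83). These counts are to be read against the 26.1%, 29.5% and 30.5% of all genes that rose and the 25.2%, 29.5% and 24.8% that fell. Of 14 genes that supply 2-oxoglutarate to TET enzymes or act on metabolites that compete with it, 0, 1 and 1 rose and 7, 7 and 9 fell. The same shares of all genes apply to these counts. IDH2, which makes 2-oxoglutarate in mitochondria, changed by -1.98, -1.53 and -1.15, and FH, which removes the competitor fumarate, by -1.20, -1.50 and -1.68. As a check of the treatment, 14 of 15 hypoxia-induced genes rose in each clone (medians 3.50, 3.62 and 3.14), with the ankyrin repeat gene ANKRD37 at 5.92, 6.40 and 5.76. Of 15 germline genes known to be silenced by promoter methylation none passed the filter on low counts, and 13 had at most 3 reads in every library, so that no change was detectable at this depth in the 24 h of hypoxia.

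The genes most like each member were sought by Pearson correlation of log2 CPM across the 18 libraries, among 10710 genes. The libraries share guides, oxygen and replicate numbers and fall into normoxia and hypoxia groups, so high values are common and are given as a description. DNMT1 was closest to ATAD5 (0.992), ATAD3B (0.988) and HAUS8 (0.988), and UHRF1 to SAE1 (0.991), MGME1 (0.991) and EXO1 (0.990). DNMT3B was closest to ADCY3 (0.988), VKORC1L1 (0.982) and ARHGEF39 (0.980), and DNMT3A to GPC3 (0.975), PDLIM7 (0.955) and HGF (0.951). Among the genes that rose, TET1 was closest to BOC (0.983), GLG1 (0.977) and LRP1 (0.976), and TET2 to SH3BP5-AS1 (0.989), DMTF1 (0.987) and KAT6B (0.983). TET3 had the weakest matches of the set, NF1 (0.903), PDS5B (0.891) and RFX7 (0.880), and MBD2 was closest to DDAH1 (0.941), IMPAD1 (0.935) and PAICS (0.931).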

How the data were processed

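Total RNA of 18 libraries was depleted of ribosomal RNA, made into stranded paired-end libraries and sequenced by the authors. Per the labels and the study's methods, reads were trimmed (Trimmomatic), checked (FastQC) and mapped by the authors with HISAT2 to the hg38 build, and featureCounts gave the number per gene over exons. Versions and the strand setting of counting are not given in the sources used here. The deposited values are raw counts per gene from the authors, with an exon length in bases that gave levels per kb. Of 28279 lines, 2 broken ones were left out.

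Counts were scaled by TMM, filtered by filterByExpr (minimum count 10, total 15) and fitted over all 6 groups at once in edgeR 4.0.16 (glmQLFit, robust; limma 3.58.1, R 4.3.3). Each comparison was tested by glmQLFTest with Benjamini-Hochberg adjustment over 14938 genes. CPM are counts scaled to a TMM-adjusted library of 1000000. Alternatives were DESeq2 1.42.0, other scalings and filters, the thresholds of the study, a fit of only the groups compared, a block for the replicate number, and libraries left out. The study calls its replicates biological, but the labels do not say that they were separate cultures, so p-values cover only the spread between these samples.

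The members and lists were chosen with earlier results of these data known. All 9 members are named. Of a list, at most the 4 genes of largest change past the study's thresholds in a comparison were named, and UHRF2 was added after its values were seen. Likeness used log2(CPM + 0.5) and genes with a mean of at least 100 counts. In simulated data with 14646 genes, the test of hypoxia in sgControl cells recovered 74% of 2-fold and 90% of 4-fold changes and called 3 of 14446 unchanged genes. There 100 genes changed at each size and the libraries were drawn independently. In the real comparison 51.4% of genes passed and the hypoxia libraries numbered 3 deviated together, so these figures do not carry over to it. Promoter windows came from RefSeq on GRCh38.p14, a patch release of hg38.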

Additional observations from a re-analysis of the deposited data

Results flagged for a closer look

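DNMT1 fell further in hypoxia in both XIST knockdown clones than in sgControl cells, and the test of the difference itself passed in each. The difference in log2 fold change was -0.72 for sgXIST7 (adjusted p = 0.00465) and -0.58 for sgXIST9 cells (adjusted p = 0.0170) by edgeR's quasi-likelihood test, and both rest on the same sgControl libraries. The sgXIST9 call was lost without sgControl normoxia replicate 1 (-0.57) or sgXIST9 normoxia replicate 2 (-0.52). Of 24 S-phase genes, 12 and 10 had a lower difference than DNMT1 (medians of the 24 genes -0.73 and -0.56), and the part of S-phase expression in the result was not tested. All 3 hypoxia libraries of each knockdown were below all 3 of sgControl.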

How the results depend on the processing

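Of 2592 values of the 8 tested genes under the alternatives, 2472 kept their direction and their side of the threshold, 26 lost their call, 66 gained one and 28 changed sign, none of them a value that had passed. At the thresholds of the study the number of genes past the test became 0 of 1 for sgXIST7 and sgXIST9 against sgControl in normoxia, 2 of 5 for sgXIST7 and 1 of 3 for sgXIST9 against sgControl in hypoxia, and 0 of 1 between the knockdowns in hypoxia and for both differences in response. DESeq2 gave 3 genes between the knockdowns in hypoxia, 2 for the difference in response of sgXIST7 and 1 for that of sgXIST7 minus sgXIST9. Fits restricted to the compared groups gave 3, 4 and 1 genes in normoxia (sgXIST7 and sgXIST9 against sgControl, and the knockdowns) and 4, 2 and 0 in hypoxia, so that sgXIST9 had more genes past the test in normoxia than in hypoxia. Without the 3 hypoxia libraries numbered 3 these were 3 and 2 in normoxia for sgXIST7 and sgXIST9, 3 between the knockdowns in hypoxia, and 6, 2 and 1 for the differences in response of sgXIST7, sgXIST9 and sgXIST7 minus sgXIST9. The cause was not tested. Depth limits DNMT3L, with 1 read in all.

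Leaving out 1 library at a time, the counts ranged from 1 to 2 (sgXIST7) and 0 to 1 (sgXIST9) against sgControl and 0 to 0 between the knockdowns in normoxia, from 4 to 6, 3 to 4 and 1 to 4 in hypoxia, from 5 to 6, 6 to 7 and 5 to 6 for hypoxia in sgControl, sgXIST7 and sgXIST9, and from 1 to 5, 0 to 2 and 0 to 1 for the differences of sgXIST7, of sgXIST9 and of sgXIST7 minus sgXIST9. The difference of sgXIST7 gave 5 genes without sgControl hypoxia replicate 3, 4 without sgXIST7 hypoxia replicate 1, 3 without sgXIST9 hypoxia replicate 2 or 3 and 2 without sgXIST7 normoxia replicate 2, and that of sgXIST9 gave 2 without sgControl hypoxia replicate 3. Signs changed at small values. MBD2 in hypoxia in sgXIST9 was 0.076 with upper-quartile scaling and 0.020 with a filter at a mean CPM of 1 (-0.27 to 0.16 with a library left out), and DNMT3A in sgXIST7 minus sgXIST9 was -0.0064 with upper-quartile scaling (-0.10 to 0.20). Without the 3 libraries numbered 3, TET3 was -0.035 for sgXIST7 against sgControl in hypoxia and -0.16 in its difference in response, and MBD2 -0.17 for sgXIST9 against sgControl in hypoxia. With a library left out, TET1 ranged from -0.20 to 0.37 and TET3 from -0.070 to 0.32 for sgXIST7, and TET1 from -0.31 to 0.030 for sgXIST9, against sgControl in normoxia. Between the knockdowns in normoxia DNMT1 ranged from -0.038 to 0.084, TET1 from -0.025 to 0.49 and TET2 from -0.12 to 0.11. For sgXIST9 against sgControl in hypoxia TET3 ranged from -0.35 to 0.065 and MBD2 from -0.14 to 0.29. In the differences, TET3 for sgXIST7 ranged from -0.13 to 0.30, MBD2 for sgXIST9 from -0.39 to 0.043, and UHRF1 and TET3 for sgXIST7 minus sgXIST9 from -0.58 to 0.0065 and from -0.30 to 0.019.

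The replicate numbers were not taken to pair the samples, because 19 of 45 pairs with the same number had a correlation of deviations above 0.1 (range -0.111 to 0.593), although 16 of 18 libraries correlated best with their own number, a hint from the data and not the design. With the replicate number as a block the counts were 1, 1 and 1 in normoxia (sgXIST7, sgXIST9, and between the knockdowns), 5, 4 and 2 in hypoxia, 7, 6 and 5 for hypoxia in the 3 clones, and 4, 1 and 1 for the differences. The genes gained in the differences were UHRF1 (-0.95), TET2 (0.73) and MBD2 (0.67) for sgXIST7 and MBD2 (0.81) for sgXIST7 minus sgXIST9. Hypoxia in sgControl cells gave 8166 calls over all genes in place of 7671.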
